A study of Mus musculus with 4 samples.

Results

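Principal 9 is a population of principal cells, the tall secretory and absorptive cells that line the tube of the epididymis, and most of its cells came from the cauda, the far end of the epididymis where sperm are stored. It was taken from the deposited table of cells as the only population with its total number of cells, of which 100 came from the cauda, 26 from the vas deferens, 3 from the corpus and 0 from the caput. Together these are 1.45% of the 8880 cells of the series and 3.26% of its 3956 principal cells, which fall into 15 populations. Principal 9 made up 10.7% of the principal cells of the cauda library, 1.91% of those of the vas deferens and 0.323% of those of the corpus. It is compared below with the other 3 principal populations found mostly in the cauda, principal 8 (486 cells in the cauda library), principal 10 (166) and principal 11 (141).

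The study took caput, corpus, cauda and vas deferens from FVB/NJ males of 10 to 12 weeks and names no mutant allele or treatment for any of them. For each region, the tissue of 4 animals (8 epididymides) was pooled, dissociated, depleted of sperm and made into 1 10x library of 3′ tags. Each region is therefore 1 sample with no replicate, and the 4 populations compared here come from the same cauda library. No test was made, since cells of 1 library are not replicates and the populations were built from these same genes: every difference below describes how these cells differ in these libraries.

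The epididymal epithelium is divided along its length into segments, each with its own set of secreted proteins, and sperm gain motility and the ability to fertilize as they pass through them. Principal cells make most of these proteins, among them cysteine-rich secretory proteins, beta-defensins, protease inhibitors and lipocalins, which coat sperm or act in the defense of the tube. Principal cells of the cauda also keep the fluid in which sperm wait quiescent and protect them from oxidation.

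The level of a gene in a population is its UMIs in all cells of that population per 1000000 UMIs (UPM), and intervals are 95% intervals that cover counting error only. As the reads are 3′ tags, levels were not divided by transcript length. The 100 cauda cells of principal 9 held 260244 UMIs, against 815491 in 486 cells of principal 8, 341114 in 166 cells of principal 10 and 254374 in 141 cells of principal 11. Principal 9 had the highest median depth of the 4 populations, with 1518 UMIs per cell against 689 in principal 8, 1198 in principal 10 and 799 in principal 11, and 74% of its cells had at least 1000 UMIs, while principal 10 had more cells of 3000 UMIs or more (49 of 166 against 21 of 100). Its median was 1.91 times that of the cells of the other 3 pooled. A count of 0 in its cauda cells allows up to 11.5 UPM, taking 3 UMIs as the floor. A search with simulated doublets called 178 of all 8880 cells (2.00%) and 0 cells of principal 9. Libraries shared 43 cell barcodes, and 1 cell of principal 9 had a barcode that was also in another library.

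The cells carried most of the markers of principal cells. *Crisp1*, *Spink8*, *Wfdc10*, *Aqp9*, *Defb43*, *Ptgds*, *Adam7* and *Adam28* together made up 15.2% of UMIs in principal 9 against 12.5%, 26.9% and 31.0% in principal 8, 10 and 11. Most of this was *Crisp1* and *Spink8*, and *Adam28* had no UMI in principal 9, 10 or 11. Of the 7 that could be counted, 0 were above and 4 below principal 8, 10 and 11. Markers of other cell types were near 0 in principal 9: those of clear cells made up 0.0296% of its UMIs against 1.33% in clear cells of the same library, those of basal cells 0.0192% against 0.875%, those of stromal cells 0.0146% against 0.841% and those of muscle 0.0123% against 10.1%. Of the 14 immune markers 11 had no UMI in principal 9, *Ptprc*, *Csf1r*, *Lyz2* and *Cd3e* among them, as had 7 of the 8 endothelial markers, *Pecam1* and *Kdr* among them. Over the 4 cauda populations these lists ranged from 0.0275% to 0.0525% for clear cells, from 0.0137% to 0.0283% for basal cells, from 0.00809% to 0.0150% for stromal cells, from 0.0102% to 0.0131% for muscle and from 0.00294% to 0.00629% for immune cells. The defining genes *Krt5* and *Trp63* of basal cells, *Atp6v1b1* and *Foxi1* of clear cells and *Pdgfra* of stromal cells were at 0 UMIs. *Trp63* was also at 0 in principal 8, 10 and 11, *Krt5* in principal 8 and 11, and *Atp6v1b1*, *Foxi1* and *Pdgfra* in principal 10 and 11. Other members were above principal 8, 10 and 11: *Krt15* and *Sfn*, *Atp6v0d2* and *Atp6v1c2*, and *Dcn* and *Col3a1*. Others, such as *Krt14*, *Itga6*, *Dmxl1* and *Col1a2*, were below them. Most of these orders rest on few UMIs. In principal 9, 5 of the 8 basal, 6 of the 10 clear cell and 6 of the 8 stromal markers had 3 UMIs or fewer. *Dcn* gave 30 of the 38 UMIs of the stromal list.

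*Gpx3*, which encodes a secreted glutathione peroxidase, and *Ltf*, which encodes the iron-binding defense protein lactotransferrin, were both detected in principal 9 but did not set it apart from the other 3. *Gpx3* had 4380.5 UPM in principal 9 (95% interval 4129.9 to 4642, 1140 UMIs) against 5662, 5611 and 5653 UPM in principal 8, 10 and 11, so that principal 9 was the lowest of the 4. *Ltf* had 1095 UPM in principal 9 (95% interval 972 to 1229.9, 285 UMIs) against 1606, 3521 and 2709 UPM in principal 8, 10 and 11, again the lowest, with ratios of 0.682 (0.598 to 0.775), 0.311 (0.272 to 0.354) and 0.404 (0.351 to 0.465). After each cell was thinned to 1000 UMIs, *Ltf* was found in 43.2% (32 of 74 cells, 95% interval 31.8% to 55.3%) of principal 9 against 59.2% (109 of 184 cells), 89.5% (85 of 95 cells) and 89.2% (58 of 65 cells) in principal 8, 10 and 11, and in 0.588% (1 of 170 cells) of basal cells of the same library as a background. With no thinning, *Ltf* was found in 47% (47 of 100 cells) of principal 9 and 3.11% (6 of 193 cells) of basal cells, at medians of 1518 and 5360 UMIs. Over all libraries, *Gpx3* ranked 4 and *Ltf* ranked 5 among the 15 principal populations, with 4432 and 1163 UPM in principal 9. Above it for *Ltf* were the other 3 and principal 6 of the corpus, with 1365 UPM, and next below it for *Gpx3* was principal 7 of the corpus, with 3822 UPM. The highest level outside principal cells was 1539 UPM for *Gpx3*, in a stromal population of the vas deferens, and 91.6 UPM for *Ltf*, in a small clear cell population with 4 UMIs of it.

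Principal 9 differed widely from principal 10 and 11 in the genes of the translation machinery. Genes for ribosomal proteins made up 20.8% of UMIs in principal 9 against 18.4%, 5.02% and 6.53% in principal 8, 10 and 11, which is 1.13 (1.12 to 1.15) times principal 8, 4.15 (4.08 to 4.22) times principal 10 and 3.19 (3.14 to 3.25) times principal 11. Cell by cell, the share in principal 9 ran from 7.72% to 30.8% with a median of 21.4%, against medians of 16.7%, 4.25% and 3.41% in principal 8, 10 and 11. The first to the third quartile of principal 9, from 18% to 23.1%, spanned less than that of principal 8, from 8.81% to 22.9%. The highest cell of principal 10, at 18.5%, was below the median cell of principal 9. The share was also taken by depth: in cells of fewer than 1000 UMIs, of 1000 to 3000 and of 3000 or more it was 16.9%, 21.8% and 20.7% in principal 9, 16.5%, 15.5% and 20.1% in principal 8, 4.81%, 4.82% and 5.13% in principal 10 and 4.04%, 5.09% and 7.92% in principal 11. In each of these depth classes principal 9 was the highest of the 4, by little over principal 8 in the shallowest and the deepest cells.

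**Figure D1:**
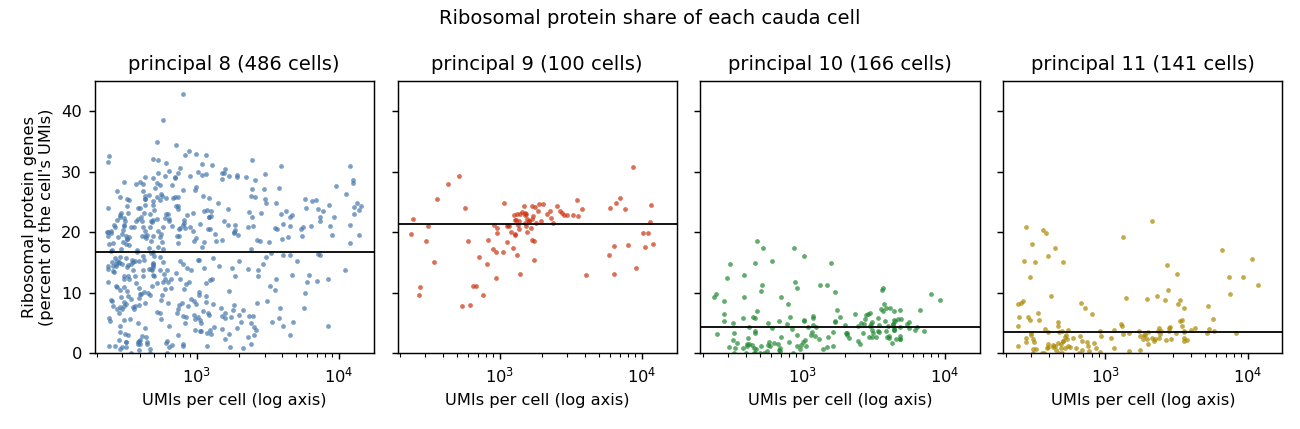
Share of ribosomal protein genes in each cauda cell of principal 8, 9, 10 and 11 (percent of the cell's UMIs) against the UMIs of the cell on a log axis, with 1 point per cell and a black line at the median. The cells of principal 9 gather around their median of 21.4%, while most cells of principal 10 and 11 lie below 10%.

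Of 76 ribosomal protein genes with enough UMIs to be counted, 65 had a level in principal 9 above all 3 other populations and 0 below all 3, against 34.7% and 37.6% of the 2229 genes counted in either direction. *Rpl41* had 14586 UPM in principal 9 (95% interval 14126 to 15058, 3796 UMIs) against 14718, 4131 and 4619 UPM in principal 8, 10 and 11, level with principal 8. *Rpl10* had 6728 against 5039.9, 1255 and 1631 UPM, *Rpl26* had 5172 against 4417, 929 and 1604 UPM and *Rps26* had 5199 against 4103, 1020.2 and 1679 UPM. None of the 76 was at least 2 times as high as in principal 8. Genes of the respiratory chain and ATP synthase, which make the bulk of cellular ATP in the inner mitochondrial membrane, followed the same order, with 3.21% of UMIs in principal 9 against 2.74%, 1.09% and 1.36% in principal 8, 10 and 11. Of 71 such genes, 50 were above all 3 populations and 2 below. *Cox4i1* had 3873 against 3124, 1196 and 1470.3 UPM in principal 9 and principal 8, 10 and 11, and *Cox6c* had 2444 against 2145, 545 and 802 UPM. *Cycs*, the gene of cytochrome c, had 492 UPM in principal 9 (95% interval 410.3 to 585, 128 UMIs) against 219.5, 20.5 and 110.1 UPM in principal 8, 10 and 11, and with *Cox6b2* and *Ndufb4*, a subunit of complex I (177 against 83.4, 38.1 and 51.1 UPM), it was 1 of 3 members of the list called higher by the rule given next. Of the list, 70 members had enough UMIs for that rule, which called 2.78% over all genes. Genes encoded by the mitochondrial genome are not among those of the matrix and were not analysed here.

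A gene was called higher in principal 9 if it had at least 20 UMIs there and at least 2 times the level of each of principal 8, 10 and 11. Of 1437 genes with enough UMIs, 40 (2.78%) met this, and the interval of all 40 lay above 1 against each of the 3. These intervals come from the same counts that chose the genes, so they add no support to the calls. With ribosomal protein genes left out of the denominator, which raises every ratio of principal 9 by 0.04, 0.26 and 0.24 on the log2 scale against principal 8, 10 and 11, 52 genes were called higher and 107 lower, in place of 40 and 164. By the same rule principal 8 had 37 genes (0.903%), principal 10 had 22 (1.18%) and principal 11 had 7 (0.521%) above the other 3. For 32 of the 40 genes, principal 8 came nearest to principal 9. Against principal 8 alone, 65 genes (4.52%) were at least 2 times as high, against principal 10 alone 600 (41.8%) and against principal 11 alone 507 (35.3%). With every cell thinned to 1000 UMIs and shallower cells left out, 34 genes were called, of which 11 were among the 40.

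The gene with the largest ratio was *Cox6b2*, a form of a cytochrome c oxidase subunit best known from the testis (chromosome 7, 4751792 to 4753094 on the minus strand, positions here and below being those of the mouse genome build GRCm38, which is mm10). It had 35 UMIs in 19 cells of principal 9, or 134 UPM (93.7 to 187), against 3 UMIs in principal 8, a ratio of 36.6 (11.5 to 186), and 0 UMIs in principal 10 and 11. With the floor of 3 UMIs in place of 0, the level in principal 11 was at least 11.4-fold lower than in principal 9. The gene was not limited to principal 9 in the series. Over all libraries principal 9 came 3 in order among the 15 principal populations with 99.3 UPM, after principal 12 of the vas deferens with 145 UPM, and the largest stromal population had 161 UPM. Stromal markers made up 0.0146% of UMIs in principal 9 and 0.0150% in principal 10, where *Cox6b2* was at 0. The 26 vas deferens cells of principal 9 had 4 UMIs of *Cox6b2* (30.4 UPM), against 6 UMIs (56.5 UPM) in those of principal 11.

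*Actb*, the gene of the cytoskeletal beta-actin (chromosome 5, 142903115 to 142906754 on the minus strand), was the most abundant of the 40. It had 4215 UPM in principal 9 (95% interval 3969 to 4472, 1097 UMIs) against 1224, 642 and 1238 UPM in principal 8, 10 and 11, with ratios of 3.44 (3.16 to 3.76), 6.57 (5.67 to 7.63) and 3.40 (3.00 to 3.87). At 1000 UMIs per cell it was found in 82.4% (61 of 74 cells, 95% interval 71.8% to 90.3%) of principal 9 against 39.7% (73 of 184 cells), 27.4% (26 of 95 cells) and 36.9% (24 of 65 cells) in the other 3. Basal cells of the library had 99.4% (169 of 170 cells), clear cells 75% (69 of 92 cells) and stromal cells 77.1% (178 of 231 cells). Basal cell markers stood at 0.0192% of UMIs in principal 9 and 0.0283% in principal 11, clear cell markers at 0.0296% and 0.0275%. Over all libraries *Actb* was highest among principal cells in principal 13 of the vas deferens, with 4031 UPM, and principal 9 came 4 in order with 3483 UPM.

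*Khdc1a*, which encodes a KH domain protein of a family known from oocytes and early embryos (chromosome 1, 21349641 to 21352200 on the plus strand), had 469 UPM in principal 9 (95% interval 389 to 559.7, 122 UMIs) against 148, 126 and 126 UPM in principal 8, 10 and 11. It was found in 41.9% (31 of 74 cells, 95% interval 30.5% to 53.9%) of principal 9 cells at 1000 UMIs per cell and in 11.4% (21 of 184 cells), 11.6% (11 of 95 cells) and 12.3% (8 of 65 cells) of the others, with 0% (0 of 170 cells) in basal cells, where 3 cells would be 1.76%. *S100a8*, the gene of a calcium-binding protein that is abundant in neutrophils and also made by epithelia (chromosome 3, 90668978 to 90670035 on the plus strand), had 861 UPM in principal 9 (95% interval 752 to 981, 224 UMIs) against 123, 67.4 and 287 UPM in principal 8, 10 and 11. Its 224 UMIs lay in 25 of the 100 cells, with 47 in a single cell, and the ratio to the other 3 pooled was 6.20 (5.09 to 7.54) from summed UMIs but 2.80 when each cell counted equally. At 1000 UMIs per cell it was found in 18.9% (14 of 74 cells, 95% interval 10.7% to 29.7%) of principal 9 and 7.61% (14 of 184 cells), 3.16% (3 of 95 cells) and 16.9% (11 of 65 cells, 95% interval 8.76% to 28.3%) of principal 8, 10 and 11, with overlapping intervals in principal 9 and 11. Its usual partner *S100a9* had 4 UMIs, and immune markers had 8 UMIs in all. *Pim1*, a serine/threonine kinase gene, had 96.1 against 31.9, 11.7 and 23.6 UPM in principal 9 and principal 8, 10 and 11, and *Stard4*, whose protein carries cholesterol between membranes, had 204 against 93.2, 82.1 and 102 UPM.

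**Figure D2:**
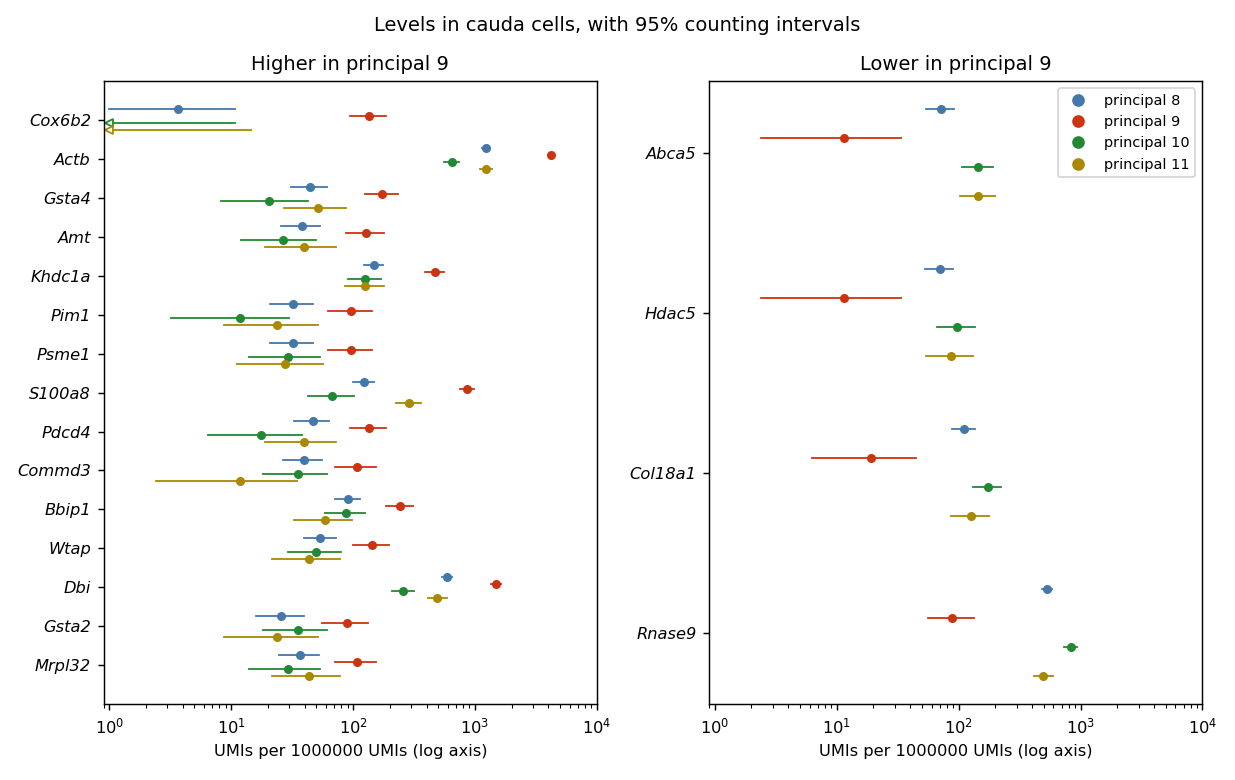
Levels of the 15 genes with the largest ratios among those higher, and the 4 with the smallest among those lower, in the cauda cells of principal 9 than in principal 8, 10 and 11, in UMIs per 1000000 UMIs on a log axis. Points are levels and lines 95% counting intervals, and open triangles at the left edge stand for 0 UMIs. In the left panel principal 9 lies to the right of the other 3 for every gene, with *Cox6b2* at 134 and *Actb* at 4215 UPM, and in the right panel to their left.

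The rest of the 15 leading genes had varied roles. *Gsta4*, a glutathione S-transferase that acts on products of lipid peroxidation, had 173 UPM in principal 9 (95% interval 126 to 231, 45 UMIs) against 44.1, 20.5 and 51.1 UPM in principal 8, 10 and 11. *Gsta2*, of the same family, had 88.4 against 25.8, 35.2 and 23.6 UPM. *Dbi*, which encodes the acyl-CoA-binding protein, had 1483 UPM in principal 9 (95% interval 1339 to 1639, 386 UMIs) against 589.8, 258 and 491 UPM in principal 8, 10 and 11. *Amt*, of the glycine cleavage system, had 127 against 38.0, 26.4 and 39.3 UPM, and *Mrpl32*, of the mitochondrial ribosome, had 108 against 36.8, 29.3 and 43.2 UPM. The others were *Psme1*, a proteasome activator subunit (96.1 against 31.9, 29.3 and 27.5 UPM), *Pdcd4*, an inhibitor of translation (134 against 46.6, 17.6 and 39.3 UPM), *Wtap*, of the complex that methylates adenosines in mRNA (142 against 54.0, 49.8 and 43.2 UPM), *Bbip1*, of the BBSome (242 against 90.7, 87.9 and 59.0 UPM) and *Commd3* (108 against 39.2, 35.2 and 11.8 UPM). The 3′ ends of *Pdcd4* and *Bbip1* meet on chromosome 19 from opposite strands, and how counting treated strand is not given in the sources used here, so that their values are uncertain. *Khdc1a*, *Gsta2* and *Actb* are genes that have close copies in the genome, and reads with several possible origins were left out before counting.

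Over all libraries and all 15 principal populations, principal 9 was the highest for 177 of 2155 genes (8.21%), and for 3 of them (0.139%) by at least 2 times over the next. These were *Khdc1a*, with 384 UPM and 2.66 times principal 8, *S100a8*, with 952 UPM and 2.50 times principal 11, and *Stard4*, with 229 UPM and 2.13 times principal 11. Outside principal cells the highest level of *S100a8* was 13.3 UPM, that of *Khdc1a* 11.6 UPM and that of *Stard4* 78.9 UPM, in a population of clear cells.

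A gene was called lower in principal 9 if its level was at most 0.5 times that of each of the other 3, where the lowest of these would give at least 10 UMIs in principal 9. Of 2020 such genes, 164 (8.12%) met this, against 29 (0.783%) for principal 8, 152 (6.1%) for principal 10 and 18 (1%) for principal 11. Against 1 population alone, 315 genes (11%) were at most 0.5 times principal 8, 564 (30.4%) principal 10 and 311 (23.2%) principal 11. Many calls rest on few UMIs: the median gene of the 164 had 6 UMIs in principal 9, 18 had 3 or fewer, and for 100 of them the interval lay below 1 against each of the 3. *Rnase9*, a member of the ribonuclease A family secreted by the epididymis (chromosome 14, 51038459 to 51041869 on the minus strand), was the clearest, with 88.4 UPM in principal 9 (95% interval 56.0 to 133, 23 UMIs) against 531, 829.6 and 495 UPM in principal 8, 10 and 11, and its 23 UMIs lay in 6 cells. *Adam7*, whose protein is passed to the sperm surface (chromosome 14, 68497336 to 68533741 on the minus strand), had 642 UPM in principal 9 (95% interval 548 to 747, 167 UMIs) against 2227, 4471 and 2292 UPM in principal 8, 10 and 11. The remaining genes with the smallest ratios had 1 to 5 UMIs each in principal 9. Among them were *Abca5* (a lipid transporter), *Hdac5* (a histone deacetylase), *Col18a1* (a basement membrane collagen), *Dpp4* (a surface dipeptidase), *Kmt2c* (a histone methyltransferase), *Paxbp1*, *Man2c1* (an alpha-mannosidase) and *Qk* (an RNA-binding protein). *Abca5* had 3 UMIs in principal 9 against 58, 49 and 37 in principal 8, 10 and 11, or 11.5 against 71.1, 144 and 145 UPM, a ratio of 0.162 (0.0325 to 0.498) to principal 8. *Dpp4* had 4 UMIs against 52, 57 and 31.

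Lower genes were longer than the others. The median length of the 159 lower genes with an annotated gene was 41255 bases, against 17173 bases over the 1962 genes that could be counted as lower, while the 39 higher genes had a median of 7045 bases against 10961. With ribosomal protein genes left out, the median log2 ratio of principal 9 to principal 8 went from 0.10 over 0.05 and -0.13 to -0.40 over 4 classes of genes from the shortest to the longest. Against principal 10 it went from 0.81 to -0.78 and against principal 11 from 0.65 to -0.62. In the longest class 15.8% of the genes were called lower, against 2.50% in the shortest. Median depth and the ribosomal share, given above, also differ between the populations, and their part in this was not tested.

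**Figure D3:**
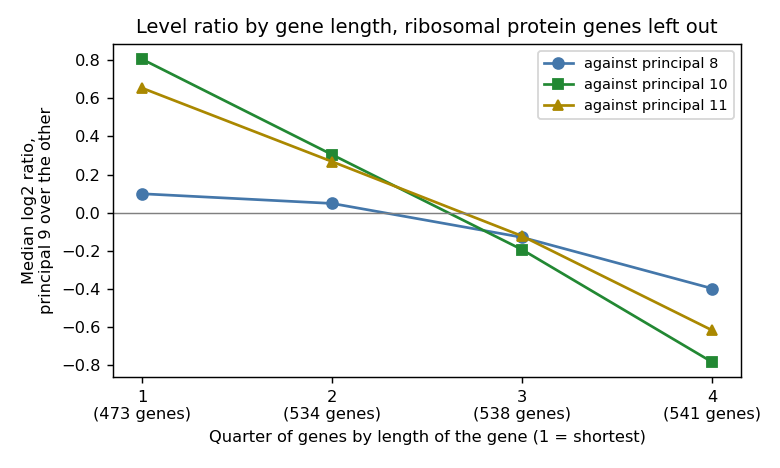
Median log2 ratio of the level in principal 9 to that in principal 8, 10 or 11 over genes in 4 classes by the length of the gene, ribosomal protein genes left out. All 3 lines fall from the shortest genes (from 0.10 to 0.81) to the longest (from -0.40 to -0.78).

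The lists of gene families and pathways, of which 42 of 44 had genes in the matrix, put principal 9 above all 3 other populations for 5 lists by summed level and below all 3 for 14. With ribosomal protein genes left out of the denominator these were 9 and 12. Beside them, the median log2 ratio to the other 3 pooled was -0.05 over all 2229 genes counted, and principal 8 holds most of the pooled UMIs. Of 9 families of secreted proteins, 5 had a lower summed level in principal 9 than in any of the other 3, and cystatins and kallikreins, given further on, did not. Beta-defensins made up 3.20% of UMIs in principal 9 against 4.58%, 4.30% and 2.65% in principal 8, 10 and 11, and 18 of the 38 genes had no UMI in principal 9. *Defb28* had 14813 against 21864, 22251 and 12037 UPM, *Defb2* 7489 against 11263, 10668 and 6805 UPM and *Defb11* 2248 against 2598, 3278 and 2559 UPM, while *Defb43* had 3132 against 3464, 2131 and 2201 UPM. Of 11 defensins counted, 0 were called higher (2.78% over all genes) and 0 lower (8.12%). WFDC protease inhibitors stood at 2.41% against 4.28%, 4.53% and 2.90%, the lowest of the 4, with *Wfdc10* at 10325 against 25952, 32024 and 17887 UPM and *Wfdc6a*, 1 of 7 called lower (8.12% over all genes), at 115 against 282, 378 and 271 UPM. *Wfdc15b* had 11754 against 14124, 11046 and 9113 UPM, and *Wfdc9* had 1110.5 against 885, 686 and 794 UPM, above all 3.

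Protease inhibitors of other families and small carrier proteins were also mostly lower. Kazal inhibitors, serine protease inhibitors of which *Spink8* is the most abundant here, made up 4.87% against 4.22%, 6.70% and 7.20% in the same order, and *Spink5* was called lower (223 against 570.2, 1249 and 731 UPM). Kunitz inhibitors stood at 0.148% against 0.377%, 0.280% and 0.188%, with *Spint3* at 711 against 2719.8, 1498 and 786 UPM and *Spint2* at 745 against 1026, 1243 and 1046 UPM. Serpins had 0.404% against 0.429%, 0.937% and 0.953%, led by *Serpina1f* (3201 against 3468, 7672 and 7591 UPM). Lipocalins, small carriers of lipophilic molecules, had 0.703% against 1.26%, 1.70% and 1.21%, nearly all of it *Ptgds*, the prostaglandin D synthase of the epididymal fluid (6602 against 12079, 16654 and 11798 UPM). The ribonuclease A family had 0.0557% against 0.124%, 0.166% and 0.114%, with *Rnase12* at 423 against 659.7, 774 and 550.4 UPM beside *Rnase9*. In all of these but the Kazal inhibitors and the beta-defensins, principal 9 was the lowest of the 4, though for serpins the interval against principal 8 held 1, at 0.942 (0.879 to 1.01).

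Proteins of the sperm surface and enzymes that trim glycans had 13.3% against 11.2%, 22.5% and 26.1%, most of it *Crisp1* and *Cd52*, and their median log2 ratio was -0.96. Of 18 counted, 0 were above and 12 below all 3 populations, and of 17 that could be called lower 6 were (8.12% over all genes): *Adam7*, the glycosidases *Man2b1* (15.4 against 45.4, 99.7 and 62.9 UPM), *Glb1* (42.3 against 103, 193 and 149 UPM), *Fuca2* (30.7 against 62.5, 117 and 142 UPM) and *Neu1* (127 against 288, 522 and 385 UPM), and *Mfge8* (19.2 against 82.2, 138 and 51.1 UPM), whose protein binds membranes. Without ribosomal protein genes in the denominator *Fuca2* was 0.507 times principal 8 and no longer called. *Clu*, the gene of the chaperone clusterin, went the other way against principal 8 and 10, with 5210.5 UPM in principal 9 (95% interval 4937 to 5495, 1356 UMIs) against 1658, 3468 and 7339.6 UPM in principal 8, 10 and 11.

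Genes of antigen presentation and interferon response made up 0.885% of UMIs in principal 9 against 1.12%, 2.80% and 2.47% in principal 8, 10 and 11. *B2m*, the light chain of MHC class I, had 7412 UPM in principal 9 (95% interval 7085 to 7751, 1929 UMIs) against 9206, 24610.5 and 22050.2 UPM in principal 8, 10 and 11, its heavy chain genes *H2-D1* and *H2-K1* had 354 against 786, 1551 and 1113 UPM and 184 against 304, 663 and 484 UPM in the same order, and *Tapbp*, which helps load peptides, had 169 against 191, 601 and 468 UPM. *B2m* gave 1929 of the 2302 UMIs of the list, of whose 28 genes 5 could be counted and 13 had 3 or fewer UMIs. Of the 5, *H2-D1* was called lower, and *Isg20*, an interferon-induced exonuclease gene, was above all 3 with 403 against 389, 193 and 177 UPM. Genes of the endoplasmic reticulum for folding and secretion had 1.5% against 1.62%, 2.85% and 2.56%, with 20 of 35 below and 4 above all 3 populations and a median log2 ratio of -0.50. The chaperone genes *Hspa5* and *Calr* had 1887 against 2506, 6519.8 and 6545 UPM and 1445 against 1590.5, 3629 and 3412 UPM, the translocation channel gene *Sec61a1* had 65.3 against 159, 243 and 208 UPM and was called lower, and the short *Sec61g*, for a small subunit of the same channel, was the highest of the 4 with 1214 against 996, 223 and 311 UPM.

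**Figure D4:**
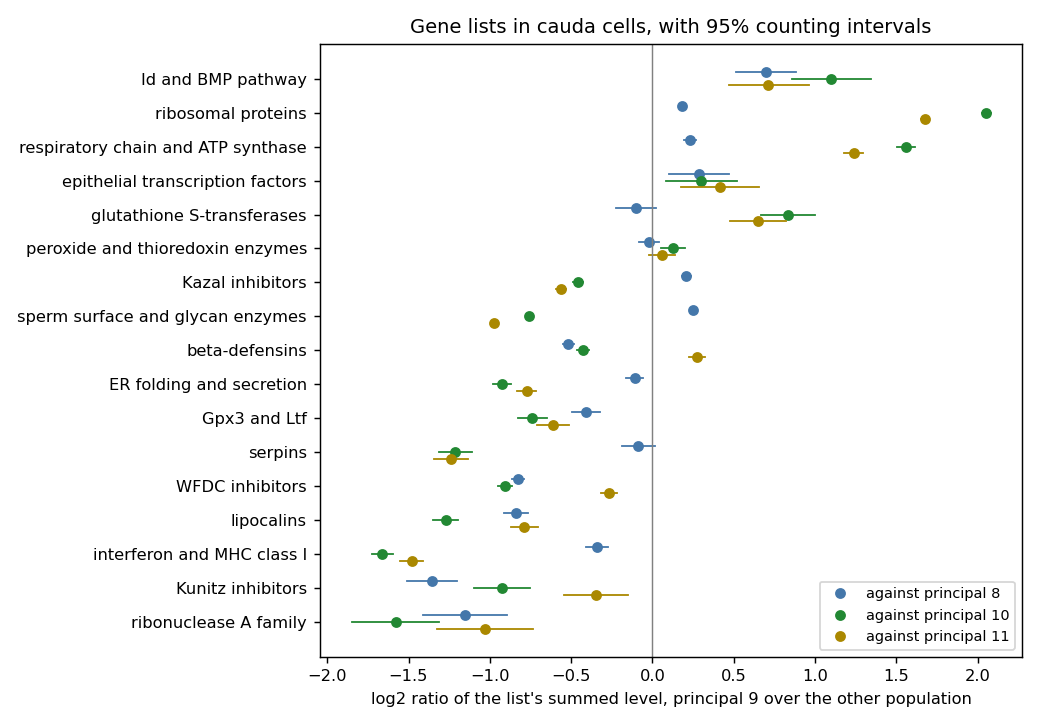
Log2 ratio of the summed level of 17 gene lists in cauda cells of principal 9 to that in principal 8, 10 and 11, with 95% counting intervals, ordered by the ratio to the 3 pooled. Ribosomal proteins lie at 0.18 against principal 8 but above 1.5 against principal 10 and 11, and *Gpx3* with *Ltf*, the interferon and MHC class I genes, the lipocalins and the ribonuclease A family lie below 0 against all 3.

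The list of Id genes and BMP signaling stood above all 3, at 0.142% of UMIs in principal 9 against 0.0873%, 0.0663% and 0.0865% in principal 8, 10 and 11. Id proteins block basic helix-loop-helix transcription factors and are induced by BMPs. *Id3* had 726 UPM in principal 9 (95% interval 626 to 837, 189 UMIs) against 318, 179 and 212 UPM in principal 8, 10 and 11 and was called higher, *Id2* had 354 against 201, 93.8 and 200.5 UPM and *Id1* had 196 against 137, 99.7 and 122 UPM. These 3 were the only genes of the 21 that could be counted and gave 189, 92 and 51 of the 369 UMIs of the list. Of them 1 was called higher, beside 2.78% over all genes. Of the BMP signaling genes, *Smad1* had 7 UMIs and *Smad7* 5, or 26.9 against 34.3, 49.8 and 78.6 UPM and 19.2 against 14.7, 20.5 and 27.5 UPM. Epithelial transcription factors stood at 0.132% against 0.108%, 0.107% and 0.0991%. *Sox9*, a factor of many ductal epithelia, was called higher among 5 (2.78% over all genes) with 184 against 90.7, 85.0 and 78.6 UPM, *Hes1*, a target of Notch, had 269 against 168, 103 and 106 UPM, and *Gata2* and *Gata3* had 146 against 99.3, 196 and 165 UPM and 138 against 119, 123 and 102 UPM. *Klf4*, an early response gene also known from differentiated epithelia, was called lower with 88.4 against 342, 258 and 322 UPM.

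For the enzymes that protect sperm from oxidation, the picture was mixed. Glutathione S-transferases stood at 0.272% against 0.292%, 0.153% and 0.174%, with *Gsta2* and *Gsta4* called higher among 9 (2.78% over all genes) and *Gstm5* and *Gstm1* at 592 against 887, 389.9 and 476 UPM and 419 against 413, 188 and 232 UPM. Peroxide and thioredoxin enzymes had 1.07% against 1.09%, 0.983% and 1.03%, nearly level over the 4 but above all 3 without ribosomal protein genes in the denominator, and their median log2 ratio was 0.58 and 9 of 16 were above all 3. *Prdx1* had 1906 against 1350.1, 1155 and 1250.1 UPM, *Gpx4*, which repairs lipid peroxides in membranes, 1095 against 830.2, 147 and 377 UPM and *Txn1* 603 against 383, 120.2 and 239.8 UPM, while *Gclc*, of glutathione synthesis, was called lower with 34.6 against 88.3, 117 and 134 UPM. Antimicrobial genes had 0.206% against 0.187%, 0.371% and 0.322%, most of it *Ltf*, with *S100a8* called higher among 2 (2.78% over all genes). Of the iron genes, with 0.520% against 0.549%, 0.617% and 0.558%, the ferritin chain *Fth1* had 2106 against 1790.3, 771 and 919.9 UPM, *Ftl1* 1625 against 1642, 1272 and 1286 UPM and *Cp* 134 against 147, 293 and 287 UPM.

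The segment markers named for the corpus (*Lcn5*, *Rnase9*, *Plac8* and *Npy*) made up 0.0311% against 0.101%, 0.109% and 0.0558%, the lowest of the 4. Those of the proximal cauda (*Gpx3*, *Klk1b27*, *Hint1* and *Gstm2*) made up 0.603% against 0.702%, 0.612% and 0.620%, and those of the distal cauda (*Ptgds*, *Spink10* and *Crisp1*) 10.1% against 6.64%, 18.1% and 22.9%. For the proximal cauda genes the sum was lower than in the other 3, though 1.18 and 1.15 times principal 10 and 11 without ribosomal protein genes in the denominator, while the median log2 ratio of the 3 genes counted was 0.20. These were *Gpx3*, *Gstm2* (388 against 451, 188 and 177 UPM) and *Hint1*, for a nucleotide hydrolase (1229.6 against 806, 302 and 342 UPM).

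Transport and structural genes moved in both directions. Genes of ion and water transport had 0.143% against 0.138%, 0.189% and 0.160%, with 8 of 11 below and 3 above all 3 populations. The sodium pump subunit gene *Atp1b1* had 19.2 against 57.6, 58.6 and 59.0 UPM and was called lower, and the scaffold and pump regulator genes *Slc9a3r1* and *Fxyd3* had 519 against 373, 366 and 397 UPM and 249.8 against 120.2, 158 and 82.6 UPM. In the prostaglandin pathway, at 0.796% against 1.32%, 1.92% and 1.45%, *Ptgs2* had 323 against 84.6, 941 and 1101 UPM and *Ptgs1* 223 against 310.2, 668 and 546 UPM. Among keratins and junction genes, at 0.652% against 0.493%, 0.892% and 0.872%, *Krt18* and *Krt19* had 1053 against 581, 381 and 594 UPM and 922 against 381, 589 and 755 UPM and *Epcam* 922 against 814, 2166 and 2166 UPM. Vesicle and ESCRT genes stood at 0.222% against 0.204%, 0.215% and 0.261% with a median log2 ratio of -0.29 against a pooled ratio of 1.02. *Chmp2a*, of the ESCRT machinery, was called higher among 8 (2.78% over all genes), with 281 against 121, 52.8 and 78.6 UPM. Early response and heat shock genes stood at 0.984% against 1.23%, 0.820% and 0.744%. The remaining lists had no gene called in either direction. They were aldo-keto reductases (0.105% against 0.102%, 0.0715% and 0.107%), cystatins (0.151% against 0.130%, 0.177% and 0.180%), Hox genes (0.0511% against 0.0613%, 0.0416% and 0.0468%), steroid receptors and hormone signals (0.0484% against 0.0531%, 0.0692% and 0.0613%), kallikreins (0.00653% against 0.0161%, 0.00469% and 0.00747%), cell cycle genes (0.0476% against 0.0434%, 0.0249% and 0.0248%) and sperm genes (0.00115% against 0.00123%, 0.000879% and 0.00118%). The cystatin list was matched by symbol and also holds *Cstad*, *Cstf1*, *Cstf2*, *Cstf2t* and *Cstf3*, which are not cystatins.

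Across the whole transcriptome principal 9 was most like principal 8. Over 10998 genes the Pearson correlation of log2 levels was 0.944 with principal 8, 0.901 with principal 11, 0.874 with principal 7 and 0.845 with principal 10, and the lowest was 0.635 with principal 4. These are descriptions over genes, which are not replicates, and the cauda populations share a library. The most abundant secreted genes did not follow that order. *Crisp1*, which took 8.94% of all UMIs of principal 9, had 89385 UPM in principal 9 (95% interval 88240.3 to 90542, 23262 UMIs) against 47852, 157223 and 211460 UPM in principal 8, 10 and 11, and *Spink8* had 41865 UPM in principal 9 (95% interval 41082 to 42658, 10895 UMIs) against 32963, 56316 and 64724 UPM in principal 8, 10 and 11, both between principal 8 and the distal populations. *Cd52*, a surface antigen passed to sperm, had 33534 against 53813, 53349 and 34925 UPM, the lowest of the 4 but 1.13 times principal 11 without ribosomal protein genes in the denominator. *Itm2b*, a membrane protein gene, was the lowest under both (8069 against 10467, 14206 and 12057 UPM). Of the 2229 genes counted, 392 had a level between principal 8 and both of principal 10 and 11, 138 rising and 254 falling toward the distal populations. In the first round of clustering, before principal cells were clustered alone, 112 cells of principal 9 (86.8%) were in the same cluster as most cells of principal 10 (91.8%) and principal 11 (90.2%), and 11 (8.53%) in that of most cells of principal 8 (71.9%).

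Within principal 9, the 74 cauda cells with at least 1000 UMIs were compared after thinning to that depth. Among the 121 genes with at least 100 UMIs in them, *Clu* varied most, with a variance of 4.54 times its mean: the median cell had 6 UMIs and the highest 37. *Crisp1* had a median of 95.5 UMIs and a highest of 148, *Spink8* 40.5 and 78, and *Cd52* 37.5 and 53, with a variance of 3.98, 3.32 and 2.68 times the mean, and each of the 3 was found in all 74 cells. *Ptgds* (3.20 times), *Defb28* (3.00 times) and the metallothionein gene *Mt2* (2.80 times) followed, *Mt2* with no UMI in 24 cells and 14 in the highest. Sampling alone would give a value near 1.

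The 26 cells of principal 9 from the vas deferens held 131747 UMIs, with a median of 2546 per cell, and came from another library. Of 811 genes with at least 20 UMIs in them, 62 (7.64%) were at least 2 times as high as in the cauda cells, and of 1437 genes 98 (6.82%) were at least 2 times as high in the cauda cells. *Akr1b7*, an aldo-keto reductase gene that marks the epithelium of the vas deferens, had 1617 UPM in the vas deferens cells and 227 in the cauda cells, a ratio of 7.13 (95% interval 5.32 to 9.68). *Defb42* had 28 UMIs against 3, *Plac8* 433 against 65.3 UPM, and *Bglap3*, *Hagh* and *Rhoc* were from 3.67 to 6.58 times as high. In the other direction, *Fxyd3*, a regulator of the sodium pump, had 65 UMIs in the cauda cells and 0 in the vas deferens cells, which allow up to 22.8 UPM, or 0.0912 times the level of the cauda cells. *Spink5*, *Npy* and *Defb39* likewise had 58, 41 and 42 UMIs against 0, with 30 of the 41 UMIs of *Npy* in a single cell, *Defb38* had 51 against 3, and the protease gene *Mmp7* had 115 against 7. In principal 11 the ratio of vas deferens to cauda cells pointed in the same direction for each of these genes, on few UMIs for several. Its vas deferens cells had 0 UMIs of *Npy*, *Defb39* and *Defb38*, which allows up to 28.2 UPM, 6 of *Fxyd3*, 8 of *Hagh* and 9 of *Rhoc*. For these genes the direction is uncertain. The ratio was 36.6 for *Akr1b7*, 17.2 for *Plac8*, 7.98 for *Defb42*, 0.0901 for *Spink5* and 0.266 for *Mmp7*. For *Bglap3* it was 1.40, against 6.58 in principal 9, and for *Fxyd3* 0.684, against 0.0912. Markers of vas deferens principal cells made up 0.314% of UMIs in the vas deferens cells of principal 9 and 0.0872% in its cauda cells, and in principal 11 2.06% and 0.107%. Region and library cannot be told apart here.

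**Figure D5:**
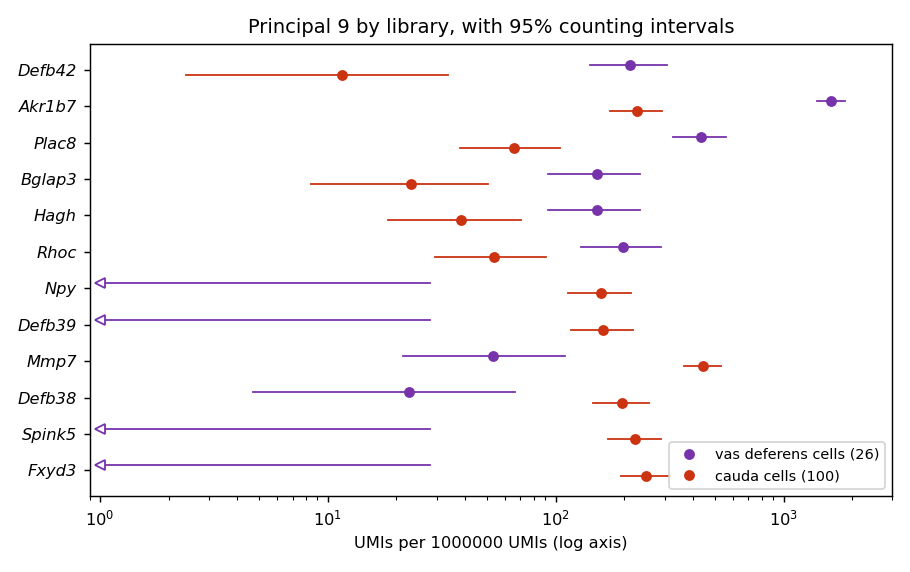
Levels in principal 9 of the 6 genes with the largest and the 6 with the smallest ratio of its 26 vas deferens cells to its 100 cauda cells, in UMIs per 1000000 UMIs on a log axis. Points are levels, lines 95% counting intervals, and open triangles at the left edge stand for 0 UMIs. *Akr1b7* reaches 1617 UPM in the vas deferens cells, and 4 genes of the lower group have no UMI there.

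The same populations can be compared in the vas deferens library, where principal 9 had 26 cells and principal 11 had 100. Ribosomal protein genes made up 19.6% of UMIs in principal 9 and 8.42% in principal 11 there, a ratio of 2.32 (95% interval 2.27 to 2.38), and respiratory chain genes 3.94% and 2.32%. Interferon and MHC class I genes had 1.07% against 2.04%. *Gpx3* and *Ltf* together had 0.584% against 0.313%, the opposite direction to the cauda library, where principal 9 was the lower. Principal 9 changed little from its 0.548% in the cauda library, while principal 11 had 0.836% there. Of the other lists above all 3 in the cauda, none differed here beyond counting error: the ratio was 0.995 (0.823 to 1.20) for Id and BMP genes, 0.853 (0.681 to 1.07) for epithelial transcription factors and 0.846 (0.538 to 1.33) for cell cycle genes. Of the 5 secreted families that were lowest in the cauda, lipocalins and WFDC inhibitors were higher in principal 9 than in principal 11 here, at 2.07 (1.79 to 2.40) and 1.94 (1.81 to 2.07), the ribonuclease A family had 1.37 (0.973 to 1.94), Kunitz inhibitors 0.874 (0.698 to 1.10) and serpins 0.611 (0.544 to 0.686). From cauda to vas deferens cells, principal 11 went from 1.21% to 0.245% for lipocalins and from 2.90% to 1.19% for WFDC inhibitors. Principal 9 went from 0.703% to 0.508% and from 2.41% to 2.31%. Of the 40 genes called higher in the cauda, 27 had at least 20 UMIs in these cells of the vas deferens library, and 22 of the 27 were higher in principal 9 than in principal 11, 6 of them by at least 2 times, beside 763 and 253 of all 1420 such genes. *Cycs* had a ratio of 3.45 and *S100a8* of 1.86 there, while *Actb*, at 1.04 (0.862 to 1.25), and *Id3*, at 0.883 (0.661 to 1.18), had intervals that held 1. *Cox6b2* was the lower in principal 9 there, on 4 UMIs (30.4 UPM) against 6 (56.5 UPM). Of the 164 lower genes 42 had enough UMIs, and 30 of these were lower, 14 of them by at least 2 times, beside 657 and 194 of the 1420. The populations were named over all libraries together, so that this is not a repeat in independent cells.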

How the data were processed

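The study made 4 10x libraries from FVB/NJ mice, 1 from each region. The authors demultiplexed the reads with bcl2fastq, aligned them to mm10 with HISAT2 2.0.4, and made UMI counts per RefSeq gene with ESAT, which ignored multimapped reads. They merged UMIs seen once that were 1 mismatch from another, kept cells within limits of total UMIs (from 350 to 14999 in the deposited table) and took out ambient RNA with a modified SoupX, which left the deposited counts, whole numbers of UMIs for 16892 genes and 8880 cells. The deposited table of cells also holds UMIs before the removal of ambient RNA, counts of genes, t-SNE positions and scran size factors (a score per cell, computed by the authors). Population names were taken from that table, without new clustering, and matched to the study's numbers through their numbers of cells: 129 in principal 9, 516 in principal 8, 183 in principal 10 and 244 in principal 11.

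UMIs were summed over the cells of a population (Python 3.11.15, numpy 2.4.6, scipy 1.17.1, pandas 2.3.3). The 95% interval of a level is exact Poisson, that of a ratio comes from the exact binomial given both counts, and that of a share of cells is Clopper-Pearson. None covers variation between animals. With 1 library per region there are no replicates and no test was run. Any count under 3 UMIs was set to 3 UMIs in ratios that decide a call. Shares were counted after drawing 1000 UMIs per cell with a fixed seed. Correlations were taken over log2 of the level plus 10 UPM. Doublets were sought by nearest neighbors of simulated doublets (scikit-learn 1.9.0), at 0.8% per 1000 cells, and called cells were kept. Positions and lengths are from GENCODE M21 on GRCm38. The rules were checked on simulated counts.

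Genes named in the text are the 15 with the largest and the 10 with the smallest ratio among those called, the 10 most abundant, the 6 with the largest ratio in each direction between vas deferens and cauda cells, the 8 that varied most, the 10 with the largest ratio among those highest in principal 9 over all 15 populations (3 reached 2 times), and up to 6 called and 4 other members of each of 44 lists; *S100a9* and the marker genes listed at 0 were named after their values were seen. A few genes that the rule would name are not reported here. The members, lists and rules were chosen with earlier results of these data known.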

Additional observations from a re-analysis of the deposited data

How the results depend on the processing

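No paired analysis was possible because each region is 1 library and the labels give no replicate numbers. The counts of genes followed the threshold. With a fold of 1.5, 169 genes were higher and 351 lower in principal 9, and 215 were higher in its vas deferens and 224 in its cauda cells. With a fold of 3 these were 7, 46, 11 and 29, with a minimum of 10 UMIs 83, 306, 202 and 234, and with a minimum of 50 UMIs 15, 43, 21 and 19. With cells thinned to 1000 UMIs, 58 genes were lower (22 of them among the 164), and 11 and 21 were higher in vas deferens and cauda cells. With each cell weighted equally these last were 138 and 209. Without ribosomal protein genes in the denominator 107 genes were lower. Against the sum of the 3 populations 135 genes were higher and 410 lower. Without principal 8 the counts were 445 and 461. Leaving ribosomal genes out of the denominator and cells under 1000 UMIs out together, chosen after the data were seen, gave 65 and 104.

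Directions against the 3 pooled populations turned for *Spink8* (1.04 times) and *Wfdc15b* (1.04), and for iron handling (1.01) and early response genes (1.04), without ribosomal protein genes in the denominator. With cells weighted equally they turned for *Wfdc15b* (1.03), the proximal cauda markers (1.01) and the vas deferens principal markers (0.905), and with all libraries for the last (0.787). The cause was not tested. The rest kept their direction under the settings run, including all 3 settings for the likeness to principal 8. Of the 164 lower genes, 18 had 3 UMIs or fewer.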
